A study of Arabidopsis thaliana with 4 samples.

Results

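The genes described here are 4 nuclear genes of Arabidopsis thaliana whose proteins act on the introns of mitochondrial transcripts: the maturase genes NMAT2 (AT5G46920), NMAT3 (AT5G04050) and NMAT4 (AT1G74350), and OTP43 (AT1G74900), which encodes a pentatricopeptide repeat protein. They were chosen by name, through the platform annotation, out of 13356 genes for which the annotation named a probe set of their own. Each of the 4 had 1 probe set, among 22746 tested in all. Whole seedlings of the css1 mutant were compared with seedlings of the wild type, the Columbia accession (WT), at an age of 9 days. Both genotypes were grown under continuous light on agar with 2% sucrose. There were 2 independent biological RNA samples per genotype, each on its own Affymetrix array, which makes 4 arrays. The labels name css1 as a mutant without giving its gene, its allele or the accession it was made in. From knowledge of the mutant and not from the labels, css1 has been described as affected in NMAT1 (AT1G30010), another nuclear maturase gene, and NMAT1 is not analysed here because the annotation listed no probe set for it alone. The check of the targeted gene could therefore not be made.

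Plant mitochondrial genomes carry group II introns, large ribozymes whose ancestors encoded their own splicing protein, a maturase. In flowering plants only MatR is still encoded in the mitochondrion, within an intron of nad1, and most introns depend on proteins made from nuclear genes and imported. These include the nuclear maturases, pentatricopeptide repeat proteins that bind defined RNA stretches, CRM domain proteins and RNA helicases. Many of the introns lie in nad genes, which encode subunits of respiratory complex I, so loss of a splicing factor usually leaves complex I short of a subunit. NMAT1 and NMAT2 kept the reverse transcriptase-like and RNA-binding regions of a maturase, and NMAT3 and NMAT4 also kept a C-terminal region related to the endonuclease of mobile introns.

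For the 4 splicing factor genes, no difference in transcript level between css1 and WT seedlings was established. The estimated differences lay between −0.19 and 0.29 on the log2 scale, and 0 of the 4 genes passed limma's test at an adjusted p under 0.05 (Benjamini-Hochberg over all probe sets, two-sided, n = 2 per genotype). In the same test 15.6% of all probe sets passed, 7.63% higher and 8.01% lower in css1. The balance of directions turned with the scaling: there were 1736 higher and 1823 lower as deposited and 2069 higher and 1497 lower with each array centred on its median. At an unadjusted p under 0.05 there was 1 of the 4, OTP43, where 31.7% of all probe sets were below that value. NMAT2 and OTP43 had positive differences and NMAT3 and NMAT4 negative ones, with a median of 0.04 over the 4 genes and of −0.03 over all probe sets. Whole seedlings were extracted, so fewer cells of a type and less RNA per cell cannot be told apart.

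NMAT2 encodes a maturase needed for the splicing of introns in nad1, nad7 and cox2. Its log2 signals were 6.92 and 7.03 in css1 seedlings, against 6.84 and 6.75 in WT seedlings. Both css1 arrays lay above both WT arrays, by 0.08 at the closest pair and by 0.28 at the widest. The mean was 6.97 ± 0.07 in css1 and 6.80 ± 0.07 in WT (SD, n = 2 each), a difference of 0.18 (SE 0.09, limma adjusted p = 0.252). As a fold this was 1.13, with a 95% interval of 0.967 to 1.32.

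NMAT3, the maturase gene with the widest spread between arrays of a genotype, had log2 signals of 5.03 and 4.86 in css1 seedlings, against 4.99 and 5.28 in WT seedlings. The genotypes overlapped, since the lower WT array lay between the css1 arrays. The mean was 4.95 ± 0.11 in css1 and 5.13 ± 0.20 in WT (SD, n = 2 each), a difference of −0.19 (SE 0.13, limma adjusted p = 0.374). The fold was 0.878, with a 95% interval of 0.707 to 1.09. The size of this difference rested on the WT arrays: it was −0.33 without WT replicate 1 and −0.04 without WT replicate 2, and it passed in neither case (limma adjusted p = 0.135 and 0.840).

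NMAT4 encodes a maturase that acts on introns of nad1. Its log2 signals were 3.69 and 3.59 in css1 seedlings, against 3.77 and 3.71 in WT seedlings. The css1 arrays lay below the WT arrays, although the nearest pair was only 0.02 apart. The mean was 3.64 ± 0.07 in css1 and 3.74 ± 0.05 in WT (SD, n = 2 each), a difference of −0.10 (SE 0.09, limma adjusted p = 0.513) and a fold of 0.934 with a 95% interval of 0.802 to 1.09. The signal of this probe set was dim, below the 30th percentile of mean signal (4.73), the only one of the 4 below it. No detection calls were used here, and changes of dim probe sets can be understated.

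OTP43 encodes the pentatricopeptide repeat protein needed for trans-splicing of an intron of nad1, in which separately transcribed pieces of the gene are joined. Its log2 signals were 5.41 and 5.57 in css1 seedlings, against 5.10 and 5.31 in WT seedlings. Both css1 arrays lay above both WT arrays, by 0.11 at the closest pair and by 0.47 at the widest. The mean was 5.49 ± 0.11 in css1 and 5.20 ± 0.15 in WT (SD, n = 2 each). The difference of 0.29 (SE 0.11, limma adjusted p = 0.145) did not pass. As a fold it was 1.22, with an unadjusted 95% interval of 1.01 to 1.48, the only interval of the 4 that did not include equal levels.

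**Figure D1:**
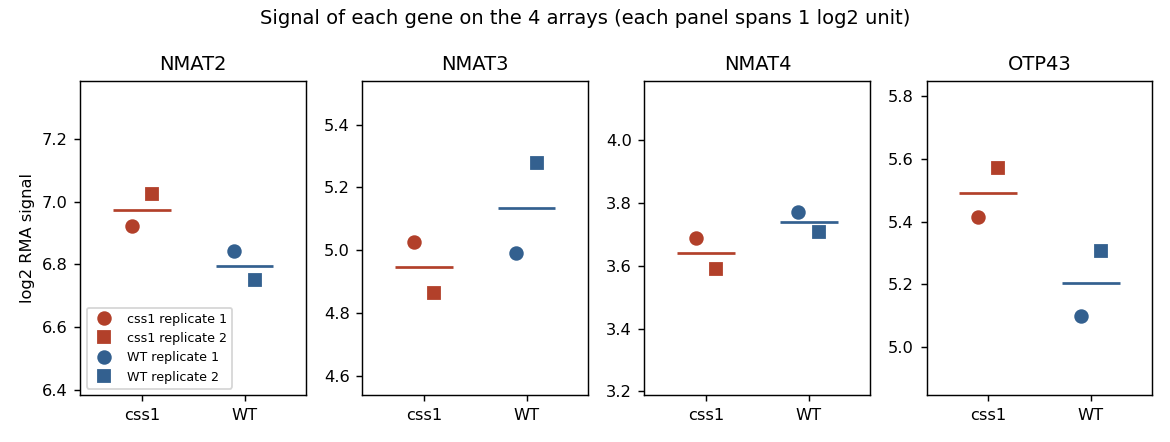
Log2 RMA signal (y axis) of NMAT2, NMAT3, NMAT4 and OTP43 on each array of css1 (left) and WT (right), with replicate 1 as a circle, replicate 2 as a square and the genotype mean as a line. Each panel spans 1 log2 unit, and the css1 and WT points overlap for NMAT3, with 4.86 to 5.03 in css1 and 4.99 to 5.28 in WT.

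The css1 and WT values thus did not overlap for 3 of the 4 genes, NMAT2 and OTP43 above and NMAT4 below, and this held for 60.0% of all probe sets, 26.6% above and 33.4% below. With 2 arrays per genotype an exact permutation test of a single gene cannot give a two-sided p below 0.333, so the comparison rests on limma's spread, which is shared over all probe sets. At its own standard error, each gene would have needed a certain difference to pass. That difference was 0.37 for NMAT2 (1.29-fold), 0.50 for NMAT3 (1.42-fold), 0.36 for NMAT4 (1.28-fold) and 0.45 for OTP43 (1.36-fold). These are cuts on the estimated difference and not on the true change, so true changes of about these sizes could also have been missed. The missing calls do not show that the levels were equal.

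Of all probe sets, 34.0% had a difference no larger in size than that of NMAT4, 54.2% no larger than that of NMAT2, 56.1% no larger than that of NMAT3 and 71.6% no larger than that of OTP43. The median absolute difference was 0.18 over the 4 genes and 0.16 over all probe sets.

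**Figure D2:**
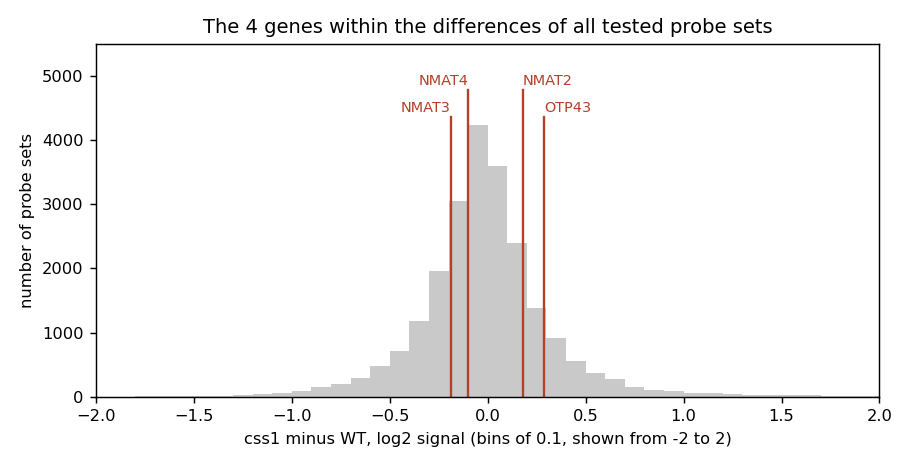
Number of probe sets (y axis) by css1 minus WT difference in log2 signal (x axis, bins of 0.1, drawn from −2 to 2) over all 22746 probe sets, with red lines at NMAT3 (−0.19), NMAT4 (−0.10), NMAT2 (0.18) and OTP43 (0.29). The 4 genes lie within the central bulk of the distribution.

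The arrays of a genotype did not move together over the 4 genes. Of the css1 arrays, replicate 2 was the higher for NMAT2 and OTP43 and replicate 1 for NMAT3 and NMAT4. Of the WT arrays, replicate 1 was the higher for NMAT2 and NMAT4 and replicate 2 for NMAT3 and OTP43. When each profile was centred on its own mean over the 4 arrays, NMAT2 and OTP43 were the closest pair (Euclidean distance 0.24), and NMAT3 and OTP43 the most distant (0.53). Many other genes had as close a profile: of 13432 probe sets with a named locus, 1028 lay within a distance of 0.1 of NMAT4, 386 of NMAT2, 126 of NMAT3 and 57 of OTP43. The nearest were AT5G11600 and AT1G27990 for NMAT2 (0.01 each) and AT4G13010 (0.02) and the receptor kinase gene THE1 (0.03) for NMAT3. For NMAT4 they were AT5G15240 (0.01) and AT1G60010 (0.02), and for OTP43 AT2G24560 and AT4G00670 (0.02 each). None of these 8 neighbours passed limma's test, with adjusted p from 0.138 to 0.554. They were picked for values close to those of genes that did not pass, so this is no separate result.

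Among the other nuclear splicing factors of mitochondrial introns, 5 of 29 listed genes had a named probe set. All 5 had positive differences, with a median of 0.23, and 2 of the 5 rose in css1. Over all 22746 probe sets, 10211 had a positive difference and 7.63% rose. CFM9, for a CRM domain protein, had log2 signals of 4.68 and 4.84 in css1, against 4.32 and 4.07 in WT (difference 0.57, limma adjusted p = 0.0320). OZ2, for a zinc finger protein, had 5.55 and 5.64 in css1, against 5.26 and 5.20 in WT (difference 0.36, limma adjusted p = 0.0460). Both genes had css1 arrays wholly above the WT arrays, and both calls were close to the threshold. The mean signal of CFM9, like that of NMAT4, was below the 30th percentile. CFM9 no longer passed when css1 replicate 1 was left out (difference 0.65), nor without css1 replicate 2 (difference 0.49) or WT replicate 2 (difference 0.44). Leaving out either css1 array removed most calls over all probe sets, so such a loss is not particular to 1 gene. The OZ2 call was lost whichever of the 4 arrays was left out, at differences of 0.32 to 0.41, and with a trend in eBayes (adjusted p = 0.0644).

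The other 3 are pentatricopeptide repeat genes, like OTP43, and did not pass. TANG2, which acts on an intron of nad5, had a difference of 0.21 (limma adjusted p = 0.206), and PPR19, which acts on nad1, one of 0.15 (limma adjusted p = 0.317). SLO3, which acts on an intron of nad7, had 5.22 and 5.22 in css1, against 4.76 and 5.21 in WT. Its difference of 0.23 (limma adjusted p = 0.374) thus came from WT replicate 1, and it was 0.01 without that array. Of the 29 listed genes, 9 were set aside because the reference gave no locus or several for their symbol.

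Genes of the neighbouring steps of mitochondrial RNA metabolism are given for comparison with the 4 splicing factor genes. Of 3 measured genes, out of 15 listed under transcription and transcript processing, 2 rose in css1, against 7.63% of all probe sets. Their differences were larger than that of any of the splicing factors. PNP2, for the polynucleotide phosphorylase that trims and degrades mitochondrial RNA, had 5.27 and 5.44 in css1, against 4.45 and 4.37 in WT (difference 0.94, limma adjusted p = 0.00554). PPR596, for a mitochondrial pentatricopeptide repeat protein, had 7.74 and 7.75 in css1, against 6.94 and 6.66 in WT (difference 0.95, limma adjusted p = 0.00796). Whether PPR596 acts in this step or in another, such as editing, was not checked. PNP2 passed under each of the 12 alternatives run, and PPR596 under 10 of 12, failing without css1 replicate 1 (difference 0.95, adjusted p = 0.0600) and without css1 replicate 2 (difference 0.95, adjusted p = 0.0683). RPOTMP, for an organelle RNA polymerase, had a difference of 0.15 (limma adjusted p = 0.300).

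Of the RNA editing factors of mitochondria, 4 of 34 listed genes were measured and 0 passed limma's test, also at an unadjusted p under 0.05. Of all probe sets 15.6% passed and 31.7% were below that unadjusted value, so 0 of 4 does not set the editing factors apart. Their median difference was −0.04, and they ranged from −0.15 in OTP87 to 0.09 in MEF26, with MEF13 at −0.07 and CWM1 at −0.01. For introns of the plastid, 3 of 17 listed splicing factor genes were measured, with a median of 0.02. CAF1, for a CRM domain protein of plastid group II introns, rose by 0.45 (limma adjusted p = 0.0376), while CFM3A (0.02, adjusted p = 0.910) and OTP70 (0.0048, adjusted p = 0.983) did not pass. The CAF1 call was lost whichever of the 4 arrays was left out, at differences of 0.37 to 0.52. Most calls over all probe sets were also lost without either css1 array.

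**Figure D3:**
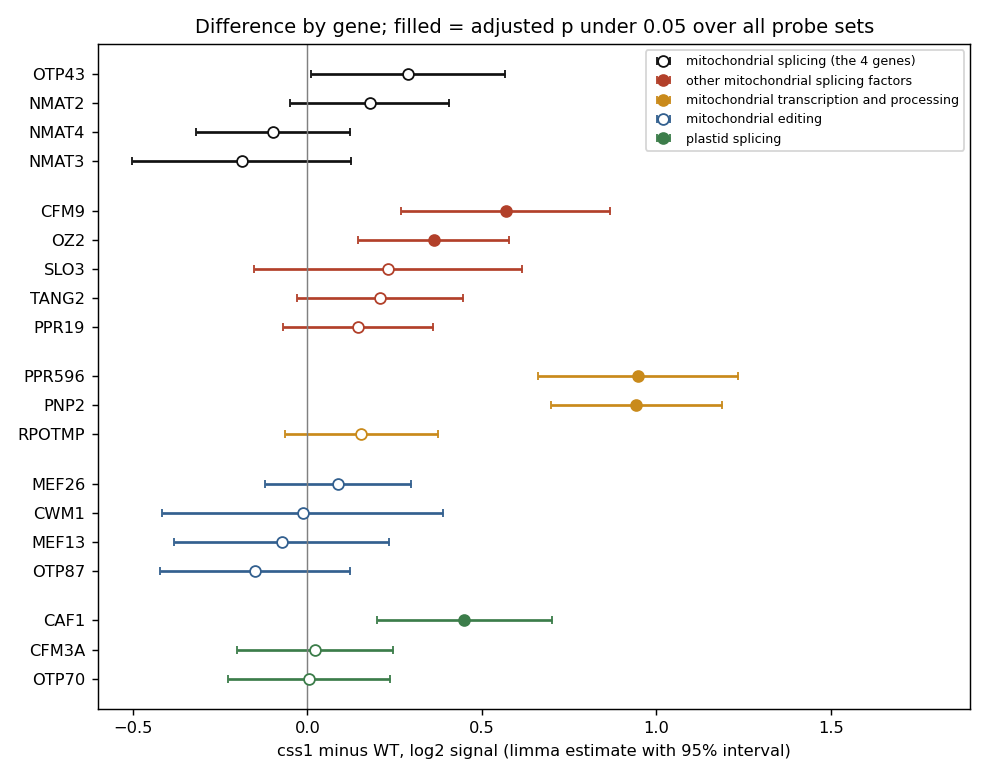
Css1 minus WT difference in log2 signal (x axis, limma estimate with its unadjusted 95% interval) of the 4 splicing factor genes and of the measured genes of 4 other lists of organelle RNA metabolism, 1 gene a line. Filled points passed at an adjusted p under 0.05 over all probe sets, and all 4 points of the splicing factor genes are open, while PPR596 (0.95) and PNP2 (0.94) lie farthest from 0.

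The transcripts that these proteins act on were represented by a few probe sets of the mitochondrial genome. The gene nad1, on which OTP43, NMAT2 and NMAT4 act among other factors, had 7 probe sets in the annotation, all with negative differences (median −0.40). Over all 22746 probe sets, 12535 had a negative difference and 8.01% fell. The 7 probe sets belong to 1 gene on the same 4 arrays, so they are not independent. Of the 7, 3 fell in css1. Dim probe sets were among the others, with mean signals at percentiles 3.7, 19.8 and 27.5 of all probe sets. The differences of the 3 that fell were −0.94 (limma adjusted p = 0.00924), −0.84 (adjusted p = 0.0183) and −0.85 (adjusted p = 0.0369). Which exon or intron each probe set reads is not given in the sources used here, so spliced and unspliced RNA cannot be told apart. In the same order, the 3 differences were −0.89, −0.67 and −0.82 when css1 replicate 2 was left out, and none then passed. The probe sets at −0.94 and −0.85 also failed without css1 replicate 1 (differences −0.98 and −0.87). The probe set at −0.84 failed without WT replicate 2 (difference −0.72). Most calls over all probe sets were likewise lost without either css1 array.

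Over all 13 probe sets of mitochondrial genes with introns, 7 of them of nad1, the median difference was −0.27. At the threshold 3 were lower, all of them the nad1 probe sets above, and 0 were higher. Of all probe sets 8.01% were lower and 7.63% higher. The probe sets of nad2, nad5 and nad7 and some of nad1 were dim, below the 30th percentile of mean signal. With the probe sets below that percentile dropped, the median was −0.55, over probe sets of nad1, nad4 and cox2 only, most of them of nad1. The nad4 probe set was the only one of the 13 with a positive difference (0.53, limma adjusted p = 0.0638). Of 5 probe sets of mitochondrial genes without introns, with a median of −0.14, 2 fell, nad9 (−0.85, limma adjusted p = 0.0171) and nad4L (−0.64, adjusted p = 0.0161). The mean signal of nad9 was below the 30th percentile. The nad6 (−0.14, adjusted p = 0.346) and cox1 (0.49, adjusted p = 0.0808) probe sets did not pass. Neither nad9 (difference −0.73) nor nad4L (difference −0.67) passed without css1 replicate 1. The same held without css1 replicate 2 (nad9 −0.98, nad4L −0.60), as for most calls over all probe sets in these 2 fits. The mitochondrial maturase gene matR, a relative of the NMAT genes, had log2 signals of 3.73 and 3.51 in css1, against 3.54 and 3.34 in WT. The genotypes overlapped, and the difference was 0.18 (limma adjusted p = 0.362).

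The directions of the 4 splicing factor differences were kept under each alternative run, 11 for NMAT4 and 12 for each of the others, and none of the 4 passed in any of them. Over these alternatives NMAT2 ranged from 0.13 to 0.23, OTP43 from 0.18 to 0.39, NMAT4 from −0.15 to −0.05 and NMAT3 from −0.33 to −0.04.

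**Figure D4:**
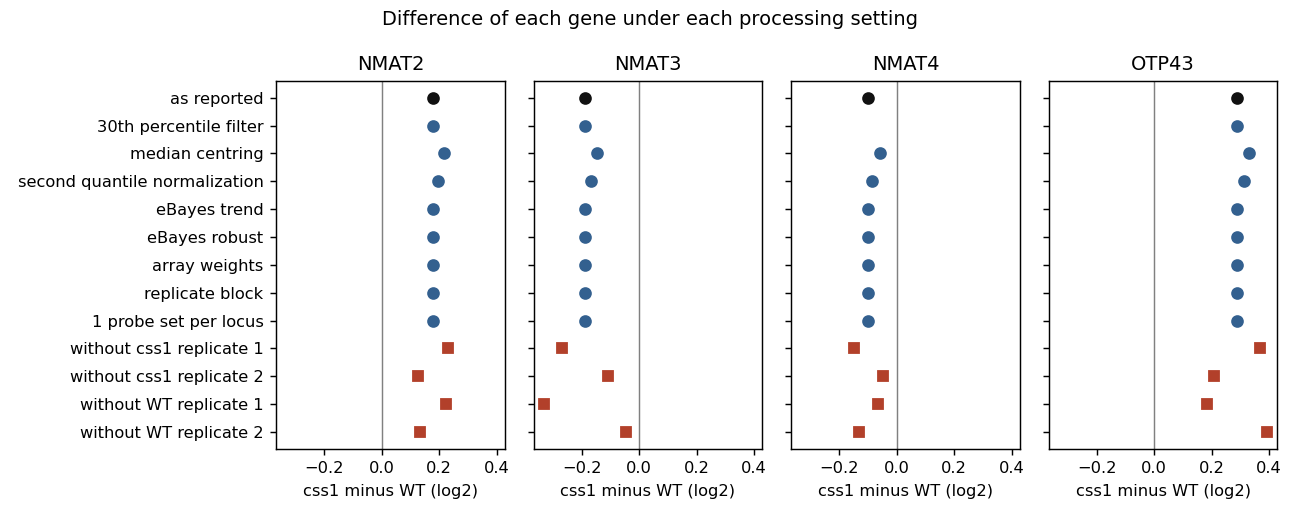
Css1 minus WT difference in log2 signal (x axis) of NMAT2, NMAT3, NMAT4 and OTP43 under each processing setting (rows), with the reported value in black, other settings in blue and the fits that leave out 1 array as red squares. Every point of a gene lies on the same side of 0, and the fits with 1 array left out spread most, from −0.33 to −0.04 for NMAT3.

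Array medians lay between 6.32 and 6.37, and the median standard error of a difference over all probe sets was 0.10. Few markers of the seedling's tissues had a named probe set, 1 of 5 for green tissue, 2 of 6 for roots and 0 of 4 for maturing seed. RCA, for rubisco activase of green tissue, had 13.50 and 13.45 in css1, against 13.68 and 13.73 in WT (−0.23, limma adjusted p = 0.128). Of the root genes, PYK10, for a beta-glucosidase, rose by 0.50 (limma adjusted p = 0.0199). It failed without css1 replicate 1 (difference 0.44), without css1 replicate 2 (difference 0.56) and without WT replicate 2 (difference 0.50). Most calls over all probe sets were also lost without either css1 array. EXPA7, for an expansin of root hairs, had a difference of −0.33 (adjusted p = 0.123). The part of tissue composition in the differences above was not tested.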

How the data were processed

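The deposited values are log2 signals that the authors made with RMA, a step named in the submitters' processing notes without a version, and they were tested as deposited. Precision is set by the number of arrays. After 64 control probe sets of the manufacturer were removed, 22746 remained. The platform annotation paired 13513 of the probe sets in the table with 1 gene and 503 with several, and 8730 were unlisted; 13436 of the 13513 matched RefSeq (TAIR10.1) by gene ID. limma 3.58.1 (R 4.3.3) was run on all probe sets with lmFit and eBayes, two-sided, with genotype in the model and no other term, and p-values were adjusted by Benjamini-Hochberg with a threshold of 0.05. The code was checked on simulated data. The 4 genes and the gene lists were chosen with earlier results of these data known. The text names every measured gene of the other mitochondrial splicing list, up to 4 probe sets of each other list by smallest p, and the 2 nearest profiles of each of the 4 genes; matR was added after its values were seen. The alternatives were dropping probe sets below the 30th percentile of mean signal, median centring, a second quantile normalization, eBayes with trend or robust, array weights, a replicate block, 1 probe set per locus and leaving out each array. In the last, a genotype left with 1 array took its spread from the other genotype.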

Additional observations from a re-analysis of the deposited data

How the results depend on the processing

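Over all probe sets the number of calls moved most when an array was left out, between 336 and 1586 higher and between 224 and 1493 lower, against 1736 and 1823 with all 4 arrays. With the replicate number as a block 629 were higher and 635 lower, and with 1 probe set per locus, where fewer probe sets were tested, 907 were higher and 901 lower. The same-numbered arrays did not deviate together (correlation −0.0061 across probe sets), so the numbers are not taken to pair the samples. The block left NMAT2 (adjusted p = 0.304), NMAT3 (0.448), NMAT4 (0.475) and OTP43 (0.119) without a call, and the calls of CFM9, OZ2, CAF1, PYK10, nad4L and 2 of the 3 nad1 probe sets were lost under it. It changed no other call of a named gene. Differences near 0 changed sign in some settings: CWM1 was at 0.027 with median centring and 0.0095 with a second quantile normalization, and with an array left out it ranged from −0.25 to 0.22, MEF13 from −0.23 to 0.084, CFM3A from −0.039 to 0.082 and OTP70 from −0.065 to 0.074. None of these passed, and the cause was not tested. NMAT4 has no value under the filter on dim probe sets. Neither do CFM9 and nad9, which leaves 1 call each among the other mitochondrial splicing factors and the mitochondrial genes without introns, nor PPR19, OTP87, MEF13, CWM1, nad6, matR, AT1G27990, AT5G15240, AT2G24560 and AT4G00670, which had no call. Mitochondrial genes without a locus in the reference have none with 1 probe set per locus.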
